A study of Mus musculus with 16 samples.

Results

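The question here was whether early life stress changed the transcriptome of mature adipocytes and of preadipocytes by different amounts, in gonadal white fat of female mice on a high-fat diet. The quantity tested for each gene was the interaction of early life treatment with cell fraction, that is, the stress minus control difference in mature adipocytes minus the same difference in preadipocytes, on the log2 scale. A positive value means that the stress difference was more positive in the adipocytes. It was computed from all 14 high-fat libraries of the 16 in the series: preadipocytes with 4 libraries per treatment and mature adipocytes with 3. The remaining 2 libraries, from preadipocytes on a low-fat diet, did not enter the test.

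All mice were C57BL/6 females, a standard inbred strain, and all 4 groups shared the high-fat diet. Stress pups were taken from the dam daily from postnatal day 2 to 16 and weaned on day 17, while control pups were left with the dam until weaning on day 21, so that separation and early weaning cannot be told apart. Age at harvest is not given in the sources used here. The tissue was digested with collagenase and parted into a floating adipocyte fraction and a stromal vascular fraction, and cells were further purified by magnetic sorting, whose antibodies are likewise not given. Each library was 1 column of bulk RNA counts, and nothing in the labels ties a library to an animal. The p-values therefore reflect the spread among libraries, part or all of which may be technical.

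Gonadal white fat is a visceral depot that stores surplus energy as triglyceride. Preadipocytes are fibroblast-like cells of the stroma that proliferate, lay down matrix and can differentiate. Mature adipocytes no longer divide. They take up and synthesise fatty acids, store and release them under insulin and catecholamine control, and secrete adipokines such as leptin and adiponectin. An exposure in early life can act on both stages, and an interaction test asks whether it left a different mark on each.

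The 14 libraries held 14182130 to 21995111 counts. Control preadipocyte libraries 1 and 3 were nearly identical, with a biological coefficient of variation of 0.0427 against 0.204 to 0.558 in the other 17 pairs within a group, and were summed and counted as 1 sample, so that n was 3 in that group and 13 libraries entered the fit. Control adipocyte libraries 1 and 3 sampled rare transcripts poorly: the number of genes with few counts (1 to 5) divided by the number with 6 to 15 was 1.147 and 0.637, against 1.547 to 2.229 in all other libraries. Adipoq and Pdgfra ordered the fractions as labelled. Adipoq, encoding adiponectin, stood at 1340 to 6720 CPM (counts scaled for library size and composition) in the adipocyte libraries and 1.02 to 45.7 in the preadipocyte libraries. Pdgfra, a receptor that marks adipocyte progenitors, stood at 364 to 796 CPM in preadipocytes and 9.53 to 43 CPM in adipocytes. Markers of other cell types were present in both fractions. Summed macrophage markers stood at 1660 to 10400 CPM in preadipocytes and 3130 to 10100 CPM in adipocytes. The mean log2 level of endothelial markers was 2.95 to 5.62 in preadipocytes and 4.75 to 7.19 in adipocytes. Transcripts of epithelium, which neither fraction should hold, set some control libraries apart. The mean log2 level of 12 epithelial and urothelial markers was 6 in the summed control preadipocyte library and 3.46 and 2.36 in control adipocyte libraries 1 and 3, and at most 1.08 elsewhere.

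No gene passed the test of the interaction. edgeR's quasi-likelihood test called 0 of 17948 genes tested (0%), and the smallest Benjamini-Hochberg adjusted p was 0.934. At an unadjusted p under 0.05 it found 873 genes (4.86%), of which 526 were positive (2.93%) and 347 negative (1.93%). An even spread of p-values would put 897.4 genes in that lowest bin. Over all genes the fitted value was positive for 9047 (50.4%), with a median of 0.01. DESeq2, a second count model, called 4 genes. Igkv10-96, an immunoglobulin light chain segment, and the stem cell receptor Lgr6 were positive, and the muscle myosin Myh4 and the epithelial protein Prom2 were negative. The fitted interaction of Prom2 was -20.02 in DESeq2 and -6.2 in edgeR, where its unadjusted p was 0.206, so its size depended on the method. At unadjusted p under 0.05 DESeq2 found 1308 of the 33527 genes it tested (3.9%). limma on log2(FPKM + 1) called 0 of 14817 genes, with 534 at unadjusted p under 0.05 (3.6%). limma voom with library quality weights called 0, with 959 at unadjusted p under 0.05 (5.34%).

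**Figure D1:**
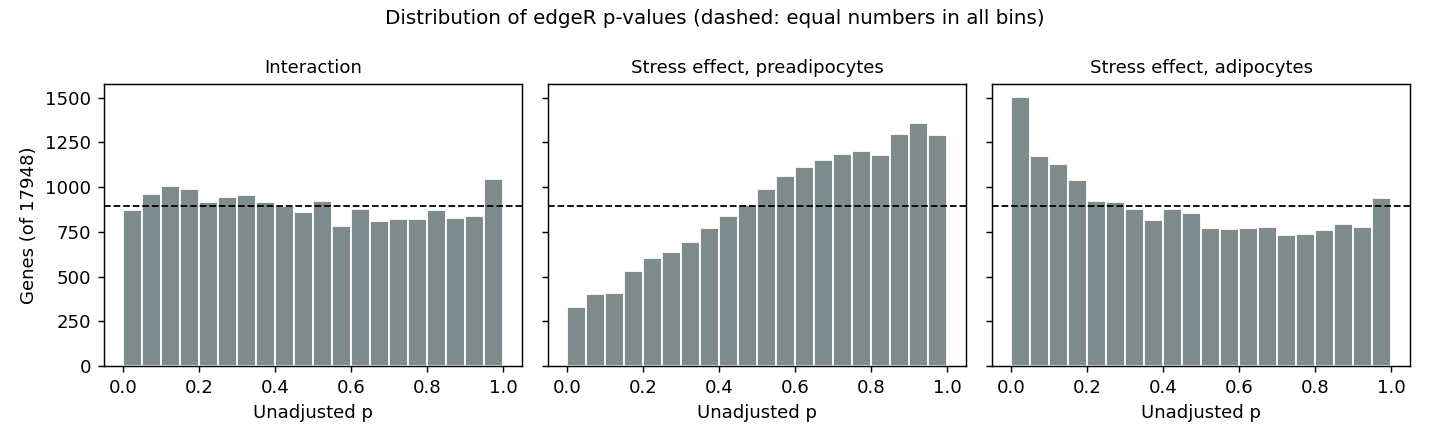
Distribution of unadjusted edgeR p-values over the 17948 genes tested, for the interaction and for the stress effect within each fraction. The x axis is p in bins, the y axis the number of genes, and the dashed line the number of genes that equal bins would hold. The lowest bin held 873 genes for the interaction, 330 for preadipocytes and 1503 for mature adipocytes.

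The stress effects that make up the interaction differed in how their p-values were spread, although neither gave a call in edgeR. In preadipocytes, 0 genes passed the adjusted threshold and 330 (1.84%) had an unadjusted p under 0.05, 45 of them higher and 285 lower under stress. In mature adipocytes, 0 passed and 1503 (8.37%) had an unadjusted p under 0.05, 763 higher and 740 lower, with a smallest adjusted p of 0.5694. This order of the fractions depended on the method. limma voom with library quality weights found 2640 genes (14.7%) at unadjusted p under 0.05 in preadipocytes and 662 (3.69%) in adipocytes, with 0 calls in either. In the adipocytes 1 library decided how many genes came near the threshold. Without control adipocyte library 2, the interaction still had 0 calls, but its smallest adjusted p was 0.0867 and 2436 genes (13%) had an unadjusted p under 0.05. The stress effect in adipocytes then had 28 calls (24 higher, 4 lower), among them Ucp1, the uncoupling protein of brown and beige fat. Library 2 was the only control adipocyte library that sampled rare transcripts as fully as the stress libraries, so its absence left the contrast to the 2 poorly sampled control libraries.

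The data were not precise enough to show that the effects were alike. The 95% interval of the interaction had a median width of 2.65 on the log2 scale. It lay within ±1 for 2515 genes (14%) and within ±2 for 9637 (53.7%), while the fitted value itself exceeded 1 in size for 4049 genes (22.6%). The median standard error was 0.617 for the interaction, 0.419 for the preadipocyte effect and 0.443 for the adipocyte effect. For most genes, differences of 2-fold between the fractions were therefore not detectable here.

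Across genes, the stress effects of the fractions, which share no library, did not run together by rank. Over the 11200 genes with a mean of at least 5 CPM, Pearson's r was 0.21 and Spearman's rho was -0.035, and 51.6% of genes had opposite signs. These are descriptions over genes, which are not independent. A few genes had extreme effects in both fractions, seen at the lower left of the plot of effects. Epithelial and urothelial markers, highest in control libraries 1 and 3 of both fractions, had medians of -4.76 in preadipocytes and -6.15 in adipocytes. Their part in Pearson's r was not tested.

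**Figure D2:**
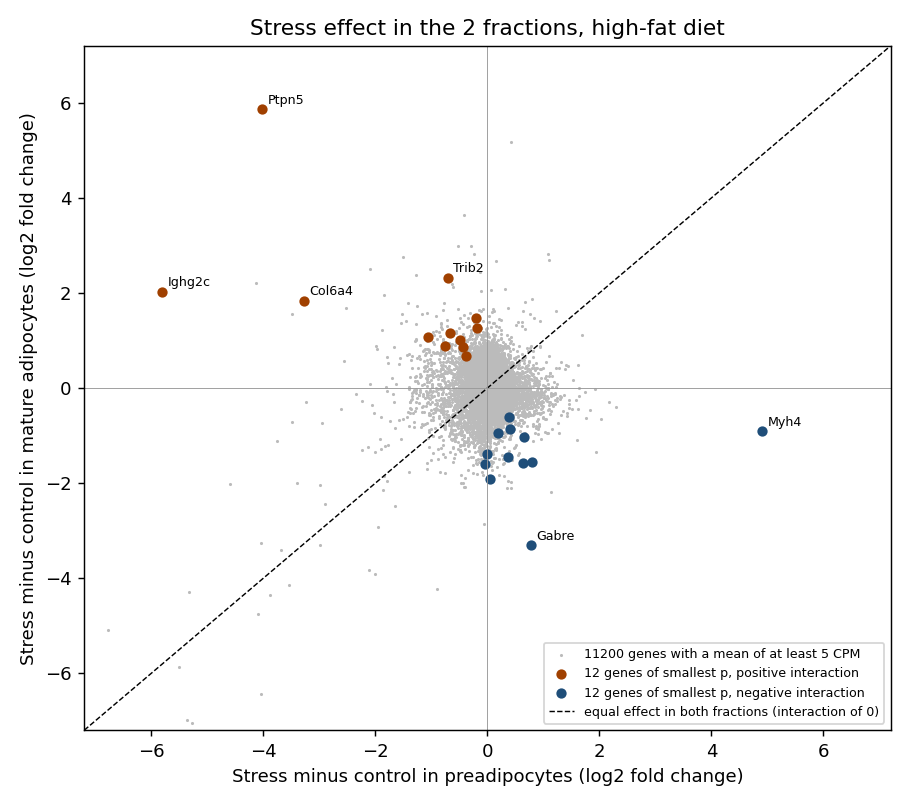
Stress minus control log2 fold change in preadipocytes (x axis) and in mature adipocytes (y axis) for 11200 genes with a mean of at least 5 CPM, with 7 genes beyond the axes at 7.2. The dashed line marks equal effects; the 12 genes of smallest p on each side of it are coloured, and most of the cloud lies within 1 of 0 on both axes.

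Genes are named below by a rule: the 12 with the smallest interaction p in each direction among genes whose 4 group means average at least 5 CPM, leaving out clone names. All but the immunoglobulin segment Ighg2c are protein-coding. Each has an adjusted p of 0.934 in edgeR, so all are described by their values and none is a call. Over all genes tested, stress and control libraries did not overlap for 630 (3.51%) in preadipocytes and 1284 (7.15%) in adipocytes. Genes picked by a small interaction p are more apt to have groups apart, so a lack of overlap among them is no separate support. Library values are in CPM and in library order, with the summed control preadipocyte libraries 1 and 3 first, followed by 2 and 4; fitted values are log2 ± standard error, with 95% intervals where given. In these bulk samples, fewer cells of a type and less RNA per cell cannot be told apart.

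Among positive interactions, the stress libraries of 5 genes lay wholly below control in preadipocytes and wholly above it in adipocytes. Over all genes tested, 24 (0.134%) had this arrangement. These were Dusp6, Trib2, Ptpn4, Entpd5 and Ptpn5. Dusp6 (ENSMUSG00000019960, chromosome 10, 99263231 to 99267489, GRCm38) encodes the phosphatase that switches off ERK kinases. It stood at 73.4, 39.1 and 41.4 CPM in control and 37.4, 18.8, 32.9 and 33.3 CPM in stress preadipocytes. In adipocytes it stood at 25.4, 35.4 and 26.7 CPM in control and 45.3, 53.8 and 61.8 CPM in stress libraries. No stress value overlapped the control values in either fraction, and the order was reversed between them. The fitted effects were -0.75 ± 0.28 in preadipocytes and 0.88 ± 0.31 in adipocytes, an interaction of 1.63 ± 0.41 (0.73 to 2.52, unadjusted p = 0.00158). With control libraries 1 and 3 of both fractions left out, it was 1.02.

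Trib2 (ENSMUSG00000020601, chromosome 12, 15791727 to 15816922) encodes a pseudokinase that directs the adipogenic factor C/EBPα to degradation. Its levels were 5.89, 6.68 and 4.59 CPM in control and 3.84, 2.54, 4.03 and 3.51 CPM in stress preadipocytes. In adipocytes they were 2.2, 3.08 and 2.46 CPM in control and 7.36, 5.1 and 26.3 CPM in stress libraries. The groups were apart in both fractions in opposite directions, and stress adipocyte library 3 stood well above the rest. The interaction was 3.03 ± 0.72 (1.5 to 4.57, unadjusted p = 0.000856), and ranged from 1.44 to 3.43 over the 25 alternatives run, which reuse these libraries. It was 1.99 without stress adipocyte library 3.

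Ptpn4, a tyrosine phosphatase, stood at 17.9, 17.3 and 16.6 CPM in control and 15.8, 12.8, 11.3 and 12.9 CPM in stress preadipocytes, and at 25.6, 32.1 and 29 CPM against 48.5, 48.1 and 41.8 CPM in adipocytes. This was among the tightest of the patterns, again with groups apart in both fractions, and its interaction was 1.06 ± 0.28 (unadjusted p = 0.00206). Entpd5, a nucleotide hydrolase of the endoplasmic reticulum, had the same arrangement, at 55.2, 47.3 and 37.7 CPM against 32.8, 37.2, 37.5 and 31 CPM in preadipocytes and 52.5, 63.8 and 50.4 CPM against 64.1, 143 and 98.2 CPM in adipocytes (1.31 ± 0.37). Ptpn5, the neuronal phosphatase STEP, had the smallest p of all (0.000375), but on little signal. It was at 1.62, 1.42 and 48.4 CPM in control and 0.878 to 1.38 CPM in stress preadipocytes, and had 0, 2 and 0 counts in the control adipocyte libraries against 133, 5 and 24 in the stress libraries. Its fitted interaction of 9.89 depends on the prior count and is no bound. Control preadipocyte library 4 held most of its counts, and the fitted value was 6.42 without it.

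For Gpam, Zfp507, Vangl1 and Mtus1 the fitted effect was larger in adipocytes than in preadipocytes. Gpam (ENSMUSG00000024978) encodes the acyltransferase that starts triglyceride synthesis from glycerol-3-phosphate. It stood at 68.2, 114 and 136 CPM in control and 207, 235 and 266 CPM in stress adipocytes. In preadipocytes it stood at 30.2, 35.6 and 84.7 CPM in control and 33.8, 38.3, 31.4 and 23.4 CPM in stress libraries. All stress adipocyte values exceeded all control values, while the preadipocyte groups overlapped. The adipocyte effect was 1.15 ± 0.37 and the interaction 1.81 ± 0.50 (0.74 to 2.89, unadjusted p = 0.00281).

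Zfp507, a zinc finger protein, was at 2.09, 4.82 and 2.63 CPM in control and 7.9, 9.33 and 9.37 CPM in stress adipocytes, with preadipocyte groups that overlapped at 6.81 to 10.7 CPM (interaction 1.68 ± 0.47). Vangl1, a planar cell polarity protein, was at 4.85, 8.49 and 5.35 CPM against 12.2, 16.9 and 16.3 CPM in adipocytes (1.47 ± 0.42). In both genes the stress adipocyte values lay closer to the preadipocyte level than the control values did. Mtus1, a microtubule-associated protein, had an interaction of 1.52 ± 0.42, with adipocyte groups that overlapped because stress library 1, at 79.7 CPM, lay within the control range of 64 to 79.9 CPM. Kbtbd11, a BTB and kelch domain protein, had effects of like size and opposite sign, -1.06 ± 0.41 in preadipocytes and 1.07 ± 0.44 in adipocytes. It was at 39.2, 16.1 and 11.2 CPM against 16.4, 8.36, 8.64 and 9.27 CPM in preadipocytes, where the groups overlapped, and at 11.2, 15.7 and 13.9 CPM against 17.3, 31.7 and 37.1 CPM in adipocytes, where they did not. Its interaction was 2.13 ± 0.60, and 1.25 without control libraries 1 and 3 of both fractions.

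The remaining positive genes had almost no adipocyte signal and were uneven in control preadipocytes. Ighg2c, an immunoglobulin heavy chain segment of plasma cells, was at 11.9, 1.78 and 92.8 CPM in control and 0 to 1.67 CPM in stress preadipocytes, and at most 1.47 CPM in any adipocyte library. Col6a4, a collagen VI chain, was at 5.49, 83.5 and 29.9 CPM in control and 2.49 to 6.26 CPM in stress preadipocytes, and at most 2.01 CPM in adipocytes. Their fitted interactions, 7.85 ± 2.12 and 5.11 ± 1.47, rest on adipocyte groups near 0 and are no bounds; that of Ighg2c was 12.86 without control adipocyte libraries 1 and 3. The reads of immunoglobulin segments may also be shared between copies.

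**Figure D3:**
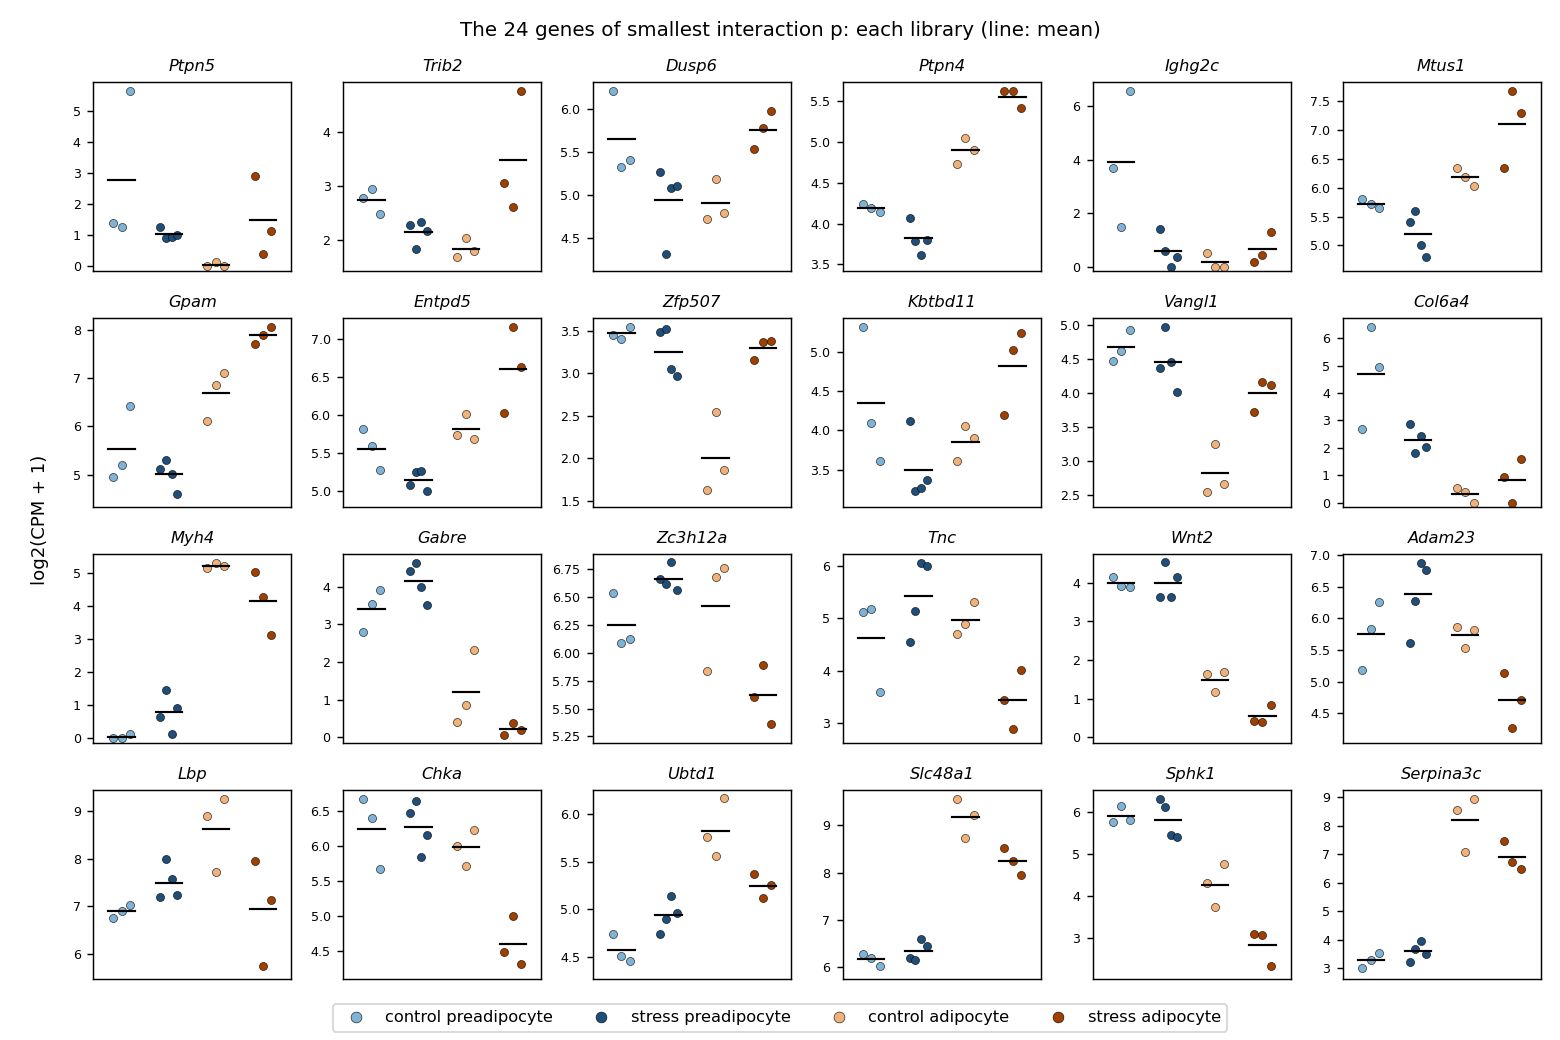
Levels of the 24 genes of smallest interaction p, as log2(CPM + 1) on the y axis, 1 point per library and a line at each group's mean, for control and stress preadipocytes and control and stress adipocytes. The upper 2 rows are positive and the lower 2 negative interactions; each panel has its own scale that need not start at 0, and in the Dusp6 panel the order of control and stress reverses between the fractions.

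Among negative interactions, Sphk1, Chka and Wnt2 had adipocyte groups wholly apart, lower under stress, and preadipocyte effects near 0. Sphk1 encodes the kinase that makes the lipid mediator sphingosine-1-phosphate. It stood at 18.9, 12.3 and 26 CPM in control and 7.46, 7.4 and 3.97 CPM in stress adipocytes, against 53.2, 69.5 and 55.1 CPM and 79, 68.2, 42.5 and 41.6 CPM in preadipocytes. The adipocyte groups did not overlap and the preadipocyte groups did. The adipocyte effect was -1.60 ± 0.35, the preadipocyte effect -0.04 ± 0.32 and the interaction -1.57 ± 0.47 (-2.58 to -0.55, unadjusted p = 0.00525). Without control adipocyte libraries 1 and 3 it was -0.91.

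Chka, encoding choline kinase of phosphatidylcholine synthesis, was at 62.9, 51.3 and 73.8 CPM in control and 21.5, 31 and 19 CPM in stress adipocytes. In preadipocytes its groups overlapped over 49.8 to 101 CPM, with an effect of 0 ± 0.28. The interaction was -1.39 ± 0.41 (unadjusted p = 0.00473). Wnt2, a secreted signal, was at 2.09, 1.24 and 2.21 CPM against 0.344, 0.311 and 0.785 CPM in adipocytes, with preadipocytes at 11.4 to 22.1 CPM in both groups (-1.96 ± 0.57).

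Zc3h12a encodes regnase-1, a ribonuclease that degrades inflammatory mRNAs. It was at 91.4, 67.1 and 68.6 CPM in control and 99.8, 96.8, 111 and 93.2 CPM in stress preadipocytes, where the groups were apart, and at 56, 101 and 107 CPM against 47.6, 58.1 and 40.2 CPM in adipocytes, where they overlapped. Its interaction was -1.26 ± 0.35 (unadjusted p = 0.00309). Lbp, which binds bacterial lipopolysaccharide, was at 107, 119 and 129 CPM against 145, 256, 190 and 149 CPM in preadipocytes, and at 475, 210 and 616 CPM against 246, 52.7 and 139 CPM in adipocytes. Stress values were thus all higher in preadipocytes and mostly lower in adipocytes. The interaction of Lbp was -2.21 ± 0.65, and -1.14 without control adipocyte libraries 1 and 3.

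Serpina3c, a protease inhibitor, had an interaction of -1.81 ± 0.56 and stood at 376, 134 and 493 CPM in control and 175, 106 and 87.5 CPM in stress adipocytes. Control libraries 1 and 3 alone were above the stress values, and without them the interaction was -0.47. Slc48a1, a haem transporter, was at 754, 422 and 597 CPM against 367, 301 and 247 CPM in adipocytes (-1.15 ± 0.35), and its interaction was -0.64 without those libraries. For these genes the size of the value therefore rested on the poorly sampled control libraries. Ubtd1, a ubiquitin-domain protein, had a smaller interaction of -0.99 ± 0.30, with adipocytes at 53.1, 46.2 and 70.8 CPM against 40.5, 33.8 and 37.1 CPM.

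Of the matrix and adhesion genes, Tnc, encoding tenascin C, was at 25, 28.5 and 38.5 CPM in control and 9.86, 6.35 and 15.2 CPM in stress adipocytes. In preadipocytes it was at 33.8, 35 and 11.1 CPM in control and 22.2, 34, 65.7 and 63.2 CPM in stress libraries, of which 3 and 4 were high. The interaction was -2.34 ± 0.67 and -1.61 without stress preadipocyte libraries 3 and 4. Adam23, an adhesion protein of the ADAM family, was at 57.4, 45.3 and 55.5 CPM against 34.3, 18.2 and 25.1 CPM in adipocytes (-1.68 ± 0.49). Gabre, a subunit of the GABA-A receptor, was at 0.33, 0.812 and 3.99 CPM against 0.0491, 0.311 and 0.147 CPM in adipocytes, a low level next to 5.91 to 23.7 CPM in preadipocytes (-4.08 ± 1.09, and -2.54 without control adipocyte library 3).

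Myh4, the fast muscle myosin heavy chain, had the smallest p of the negative genes (0.000551) and a DESeq2 adjusted p of 0.0321. It was at 34.3, 38.1 and 35.5 CPM in control and 31.5, 18.3 and 7.7 CPM in stress adipocytes, and at 0, 0 and 0.0857 CPM against 0.543, 1.76, 0.096 and 0.889 CPM in preadipocytes. The groups were apart in opposite directions, but the preadipocyte side compared values close to 0. Its fitted interaction of -5.82 ± 1.30 depends on the prior count there and is no bound.

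Over all genes tested, stress and control libraries did not overlap in both fractions and lay in opposite directions for 31 genes (0.173%). Of these, 24 were lower under stress in preadipocytes and higher in adipocytes (0.134%) and 7 the reverse (0.039%). In the same direction, 15 genes were apart in both fractions (0.0836%). How many genes would lie so apart by chance was not tested. Besides Dusp6, Trib2, Ptpn4, Ptpn5, Entpd5 and Myh4, the opposed genes included Cd24a, which encodes a surface protein. Its means were 32.2 ± 17.6 CPM (SD, n = 3) in control and 13.9 ± 7.09 (n = 4) in stress preadipocytes. In adipocytes they were 5.35 ± 0.521 (n = 3) in control and 8.58 ± 1.82 (n = 3) in stress libraries. Cd24a was highest, at 52.6 CPM, in the summed control preadipocyte library, which also had the highest level of epithelial markers. Lmna, encoding the nuclear lamins A and C, had the reverse order, with means of 503 ± 48.7 CPM (n = 3) and 631 ± 75.8 (n = 4) in preadipocytes and 651 ± 153 (n = 3) and 413 ± 77.6 (n = 3) in adipocytes, and an interaction of -0.98 ± 0.34.

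The gene lists were read as counts of positive and negative values beside those of all genes, and no list held a gene that passed the adjusted threshold. Over all genes tested, 2.93% had a positive and 1.93% a negative value at unadjusted p under 0.05. The lists were chosen with earlier results of these data known. Some genes, such as Foxo1, are in more than 1 list, so the lists are not independent. Of the 39 list medians, 15 kept their sign in all 25 alternatives run. Thermogenic genes, which let brown and beige fat burn fuel as heat, had the highest share of small p-values of the metabolic lists. Of 11 measured, 10 were positive and 5 had a positive value at unadjusted p under 0.05 (45.5%, against 2.93% of all genes). Such a share was not particular to them, since it was 42.9% for erythroid and 40% for ovary and reproductive tract markers. The median interaction of the thermogenic list was 1.38 (all genes 0.01), from medians of -0.34 in preadipocytes and 1.46 in adipocytes. Ucp1 stood at 5.18, 45.4 and 0.509 CPM in control and 130, 287 and 226 CPM in stress adipocytes, and at most 2.4 CPM in any preadipocyte library. All 3 stress adipocyte values were higher than all control values, and the control values themselves spread widely. The adipocyte effect was 3.64 ± 1.01 and the interaction 4.06 ± 1.35 (1.17 to 6.95, unadjusted p = 0.00944, adjusted p = 0.934 in edgeR).

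Ucp1 showed how far 1 library could move a value. Its interaction was 6.61 without control adipocyte library 2 and 2.68 without control adipocyte libraries 1 and 3, and the median of the thermogenic list was 4.26 without library 2 and 1.19 without libraries 1 and 3. Dio2, which activates thyroid hormone, was at 1.43, 4.06 and 1.1 CPM in control and 5.94, 24.8 and 14.2 CPM in stress adipocytes, with an interaction of 4.27 ± 1.28, and of 2.51 without control libraries 1 and 3 of both fractions. Ppargc1a, a coactivator of mitochondrial genes, was at 3.03, 3.08 and 0.255 CPM against 6.33, 9.27 and 5.98 CPM (3.97 ± 1.61). Ebf2, a factor of beige precursors that was far higher in preadipocytes, was at 5.12, 15.4 and 5.86 CPM against 16.1, 23.3 and 21.4 CPM in adipocytes (1.38 ± 0.56). Without control adipocyte libraries 1 and 3 the value of Ebf2 was 0.62, and without control libraries 1 and 3 of both fractions that of Ppargc1a was 1.59. For each of the 4 genes, picked from the list by their small interaction p, the stress adipocyte libraries lay above all control ones. Over all genes tested, 7.15% had adipocyte groups apart in either direction. Within the control adipocytes, library 2 was the highest for each of them.

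Genes of fatty acid synthesis had 11 of 16 positive values and a median of 0.34. Of the positive genes, 4 had an unadjusted p under 0.05 (25% of the list, against 2.93% of all genes). Acaca and Acacb encode the acetyl-CoA carboxylases, which make malonyl-CoA. Acaca was at 270, 380 and 241 CPM in control and 450, 860 and 503 CPM in stress adipocytes, and between 32.7 and 52 CPM in preadipocytes of both groups. Its adipocyte groups did not overlap, and its interaction was 1.13 ± 0.39. Acacb was at 23.8, 114 and 62.8 CPM against 104, 356 and 165 CPM in adipocytes, where the groups overlapped, and had an interaction of 2.44 ± 0.72. The elongases Elovl5 and Elovl6 had interactions of 0.89 ± 0.31 and 0.77 ± 0.33, and Elovl5 was at 0.55 without control adipocyte libraries 1 and 3.

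For triglyceride synthesis and fatty acid uptake, 12 of 23 values were positive, near the 50.4% of all genes. At unadjusted p under 0.05, 4 genes were positive (17.4%, against 2.93% of all genes) and none was negative. Beside Gpam these were glycerol kinase Gk (1.76 ± 0.74), the acyl-CoA synthetase Acsl1 (1.13 ± 0.50) and the lipid droplet protein Cidea (3.22 ± 1.48). The stress adipocyte libraries of Gk, Acsl1 and Cidea were uneven. They stood at 32.8, 151 and 154 CPM for Gk, at 2000, 6750 and 3300 CPM for Acsl1 and at 31.3, 92.2 and 25 CPM for Cidea. Cidea overlapped control adipocyte library 2, at 30.4 CPM, and had at most 0.6 CPM in any preadipocyte library. Without stress adipocyte library 2 the interaction of Acsl1 was 0.54, without control adipocyte libraries 1 and 3 that of Gk was 1.11, and without control preadipocyte library 4 that of Cidea was 1.55. The median of the list, 0.07, was -0.36 without stress adipocyte library 2. Fatty acid oxidation had 15 of 19 positive values and a median of 0.37, with Ppara, a receptor that drives oxidation genes, at 2.05 ± 0.91. Without stress adipocyte library 2 the median was 0.15 and the value of Ppara 1.28. Oxidative phosphorylation had 17 of 30 positive values, a median of 0.02 and no gene at unadjusted p under 0.05 in either direction. The median was -0.22 without stress adipocyte library 2 and 0.43 without control adipocyte library 1.

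Insulin signalling had 12 of 18 positive values and a median of 0.35. At unadjusted p under 0.05, 4 genes were positive (22.2%, against 2.93% of all genes). Pdpk1, the kinase that activates Akt, was at 41.3, 68.4 and 37.3 CPM in control and 69.1, 120 and 120 CPM in stress adipocytes, and at 66.4 to 74.8 CPM in all preadipocyte libraries. Its preadipocyte values hardly varied, and its interaction was 1.04 ± 0.36, and 0.58 without control adipocyte libraries 1 and 3. Insr, the insulin receptor, was at 47.4, 77.6 and 73.8 CPM against 77.6, 139 and 112 CPM in adipocytes (0.81 ± 0.35). Foxo1, a transcription factor restrained by insulin, had its larger difference in preadipocytes, at 49.5, 59.9 and 84.4 CPM against 50.7, 52.3, 28.5 and 29.4 CPM (1.02 ± 0.39, and 0.67 without stress preadipocyte libraries 3 and 4). Tbc1d4, which gates glucose transporter traffic, had an interaction of 0.87 ± 0.36. Of lipolysis genes, 16 of 23 were positive with a median of 0.18 that was 0.04 without stress adipocyte library 2, and the adrenergic receptor Adrb1 was the single gene at unadjusted p under 0.05 (2.46 ± 0.96).

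**Figure D4:**
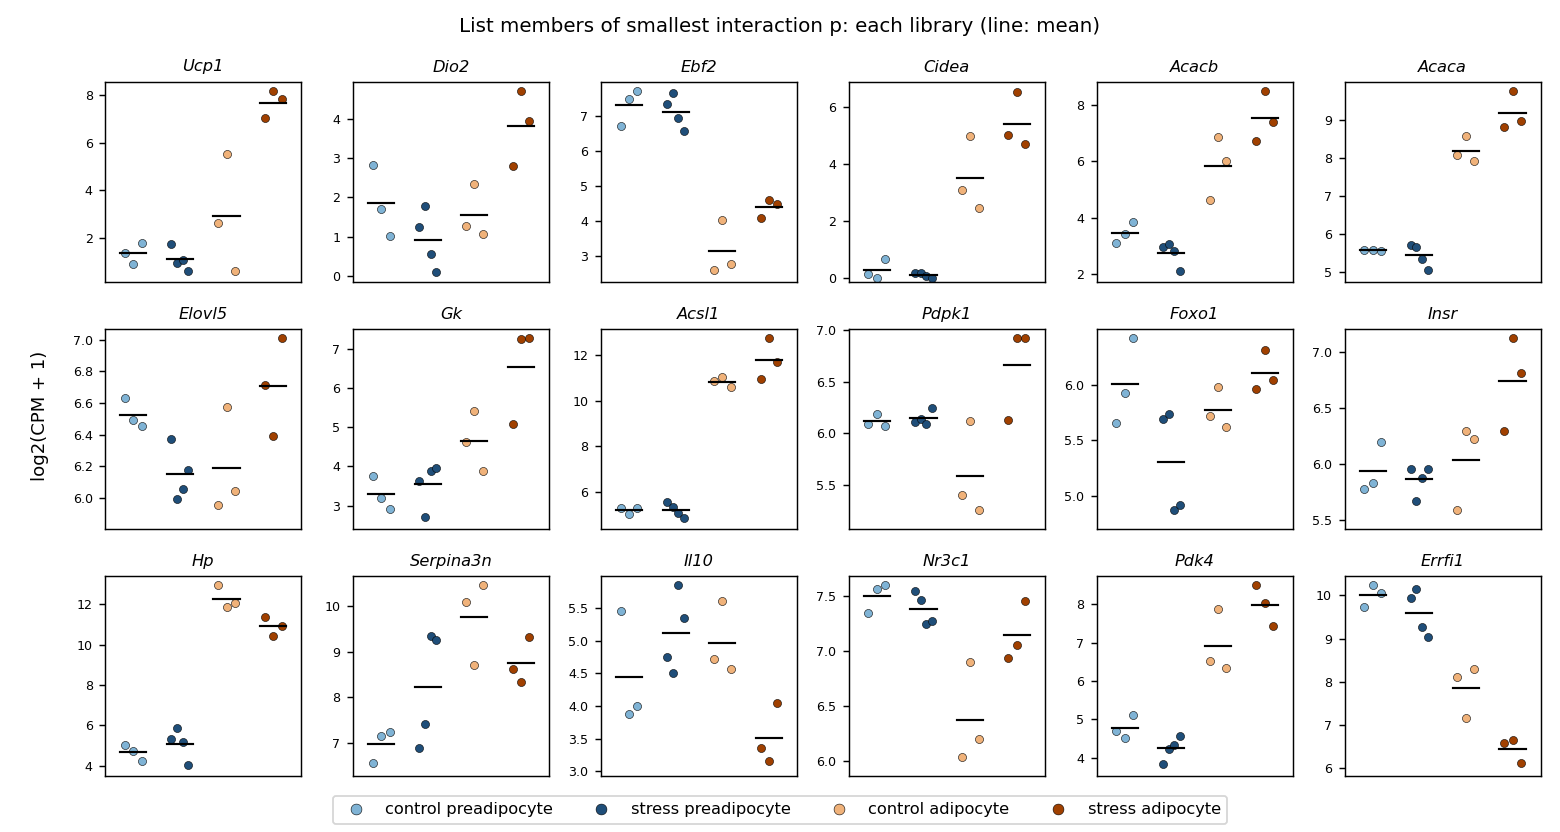
Levels of 18 members of the gene lists with small interaction p, as log2(CPM + 1), 1 point per library and a line at each group's mean; each panel has its own scale. Ucp1 in stress adipocytes lies above every control adipocyte library, and Hp in stress adipocytes below every one.

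Inflammatory genes had more negative than positive values. Of 27 cytokine and acute phase genes, 17 were negative and 5 were negative at unadjusted p under 0.05 (18.5%, against 1.93% of all genes), with a median of -0.42, from 0.21 in preadipocytes and -0.30 in adipocytes. The median was -0.19 without stress adipocyte library 1 and -0.24 without control adipocyte library 3. Hp, the acute phase protein haptoglobin that fat cells secrete, was at 7810, 3670 and 4310 CPM in control and 2640, 1390 and 1950 CPM in stress adipocytes, and at 15.1 to 57.1 CPM in preadipocytes. The adipocyte groups did not overlap (-1.40 ± 0.45), and the interaction was -1.94 ± 0.61. Il10, an anti-inflammatory cytokine, was at 25.5, 48 and 22.7 CPM against 9.18, 7.9 and 15.5 CPM in adipocytes, with an interaction of -2.15 ± 0.68, and of -3.44 without control libraries 1 and 3 of both fractions.

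Serpina3n, a protease inhibitor of the acute phase, was at 93.4, 142 and 150 CPM in control and 117, 169, 653 and 616 CPM in stress preadipocytes, and at 1090, 419 and 1410 CPM against 396, 322 and 641 CPM in adipocytes. Its preadipocyte difference came from stress libraries 3 and 4, and the interaction of -2.70 ± 0.84 was -1.24 without them and -1.47 without control adipocyte libraries 1 and 3. The same 2 libraries had the highest summed levels of the 19 macrophage markers tested. Those sums were 8810 and 10400 CPM, against 1660 to 4880 CPM in the other stress and 2520 to 6900 CPM in the control preadipocyte libraries, and their part in the inflammatory values was not tested. Macrophage markers themselves were negative for 14 of 19, with a median interaction of -0.87 that became 0.19 without stress preadipocyte libraries 3 and 4 and -0.19 without control adipocyte library 2.

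Adipokines were negative for 11 of 15, with a median of -0.43, which turned to 0.10 without control adipocyte libraries 1 and 3 and to 0.23 without control libraries 1 and 3 of both fractions. Serpina3n was the single member at unadjusted p under 0.05 (6.67%). Lep, encoding leptin, was at 5340, 1760 and 2060 CPM in control and 1870, 568 and 1380 CPM in stress adipocytes and had an interaction of -1.74 ± 1.30, while that of Adipoq was -0.63 ± 1.28 (-3.38 to 2.11). Both 95% intervals included 0, and without control adipocyte libraries 1 and 3 the values were -0.91 for Lep and 0.69 for Adipoq. Oxidative stress defence genes were negative for 13 of 18, with a median of -0.26, which was 0.11 without control adipocyte libraries 1 and 3 and -0.01 without control libraries 1 and 3 of both fractions. The glutathione peroxidase Gpx1 (-1.39 ± 0.57) and the metal-binding metallothionein Mt1 (-0.97 ± 0.44) had an unadjusted p under 0.05. Gpx1 was at -0.62 without stress preadipocyte libraries 3 and 4 and -0.70 without control adipocyte libraries 1 and 3, and Mt1 at -0.63 without the latter.

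Corticosteroid signalling bears on the stress hormone axis, and its genes were split, with 10 of 19 positive, a median of 0.09 and 2 genes in each direction at unadjusted p under 0.05 (10.5% each). Nr3c1, the glucocorticoid receptor, was at 64.5, 118 and 72.1 CPM in control and 121, 132 and 174 CPM in stress adipocytes, and at 151 to 193 CPM in all preadipocyte libraries. Its adipocyte groups were apart by a small margin, at 118 against 121 CPM, and its interaction was 0.86 ± 0.34, and 0.42 without control adipocyte libraries 1 and 3. Among hormone-induced genes, Pdk4, a kinase that spares glucose, had a positive interaction (1.53 ± 0.53), and Errfi1, a feedback inhibitor of EGF receptor signalling, a negative one (-1.12 ± 0.48). Errfi1 was at 277, 142 and 312 CPM against 95.6, 99.7 and 68.6 CPM in adipocytes. Without control adipocyte libraries 1 and 3, Errfi1 was at -0.31 and Pdk4 at 0.76, and without control libraries 1 and 3 of both fractions Errfi1 was at -0.18. Mt1 was the second negative gene. The median of the list, 0.09, was -0.30 without stress adipocyte library 3 and 0.24 without control preadipocyte libraries 1 and 3.

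Of 11 renin-angiotensin genes, 6 were positive with a median of 0.22, and of -0.06 without control adipocyte libraries 1 and 3. Agtr2, the type 2 angiotensin receptor, and Ren1, renin, were positive at unadjusted p under 0.05, but both had 0 counts in all 3 control adipocyte libraries, and in stress adipocytes stood at 0.147, 0.249 and 0.932 CPM and at 0, 0.498 and 0.687 CPM. No fold is given for them. Clock genes had 13 of 18 positive values and a median of 0.23 (-0.01 without control adipocyte libraries 1 and 3), with 1 gene at unadjusted p under 0.05, the repressor Ciart (-1.37 ± 0.59). Neurotrophic and sympathetic genes had 10 of 20 positive values, and the amine-degrading enzyme Maoa was the single one at unadjusted p under 0.05 (0.85 ± 0.38, and 0.49 without control adipocyte libraries 1 and 3). The median of that list was 0.09, and 0.94 without those libraries.

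Repressors of adipogenesis were positive for 13 of 15, with a median of 0.60, from -0.37 in preadipocytes and 0.13 in adipocytes. Of them, 3 had a positive value at unadjusted p under 0.05 (20%, against 2.93% of all genes). These were Foxo1, the nuclear receptor Nr2f2 (1.25 ± 0.46) and the Krüppel-like factor Klf2 (1.03 ± 0.46). Klf2 was at 39.4, 93.9 and 40.1 CPM in control and 119, 129 and 151 CPM in stress adipocytes, with groups that did not overlap. Its interaction was 0.35 without control adipocyte libraries 1 and 3 and 1.58 without library 2, and that of Nr2f2 was 0.75 without stress adipocyte library 3. The median of the repressors was 0.32 without stress preadipocyte libraries 3 and 4. Adipogenic transcription factors had 7 of 17 positive values and a median of -0.02, which kept its sign in 13 of 25 alternatives. Matrix genes were negative for 23 of 26, with a median of -0.43, from 0.08 in preadipocytes and -0.39 in adipocytes. Tnc was the single one at unadjusted p under 0.05 (3.85%), and Mmp2, a gelatinase, had an interaction of -1.13 ± 0.53. The median of the matrix list was -0.20 without control libraries 1 and 3 of both fractions and -0.20 without control adipocyte library 3.

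Markers of other cell types were among the lists with the largest medians. Endothelial markers were positive for 16 of 16, with a median of 1.33, from -1.15 in preadipocytes and 0.20 in adipocytes. The median was 0.54 without control libraries 1 and 3 of both fractions, and 1 marker, the transcription factor Sox18, had an unadjusted p under 0.05 (6.25%). Their summed level was 462 to 1080 CPM in control and 258 to 557 CPM in stress preadipocytes, and 644 to 3130 and 1390 to 3090 CPM in adipocytes. B cell markers were positive for 13 of 14 with a median of 1.39 (0.80 without stress adipocyte library 3). Of them, 4 had a positive value at unadjusted p under 0.05 (28.6%, against 2.93% of all genes). Among these, Ms4a1, encoding CD20, was at 25.9, 10.2 and 17.2 CPM in control and 8.56, 1.89, 2.35 and 7.07 CPM in stress preadipocytes. In adipocytes it was at most 3.63 CPM. Its preadipocyte groups were apart, and nearly all its signal lay in that fraction (interaction 3.80 ± 1.14, and 2.53 without control libraries 1 and 3 of both fractions). The summed B cell markers were at 425 to 883 CPM in control and 151 to 638 CPM in stress preadipocytes, and at 623 to 1400 and 505 to 931 CPM in adipocytes, so these sums overlapped in both fractions.

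Erythroid markers were positive for 7 of 7 with a median of 1.65, and 3 had an unadjusted p under 0.05 (42.9%). Hbb-bt, a haemoglobin gene whose reads may be shared with its near-identical neighbour, was at 56.3 to 143 CPM in control and 10.1 to 91.1 CPM in stress preadipocytes, where the groups overlapped. Cell cycle genes were negative for 28 of 29 with a median of -0.75, but none had an unadjusted p under 0.05, and the median was 0.44 without stress preadipocyte libraries 3 and 4 and 0.30 without control adipocyte library 2. Genes of lipid-associated macrophages, the foamy cells of obese fat, were negative for 15 of 15 with a median of -0.98, which was -0.05 without stress preadipocyte libraries 3 and 4. Transcripts of these cell types were thus uneven among the libraries of a group, and their part in the interaction of other genes was not tested.

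Epithelial and urothelial markers had large medians within both fractions, -4.76 in preadipocytes and -6.15 in adipocytes, and a median interaction of -0.75. Their summed level was 21.3 to 1390 CPM in control and 2.83 to 48 CPM in stress preadipocytes, and 7.57 to 245 and 5.3 to 7.9 CPM in adipocytes. The median interaction was 3.95 without control adipocyte libraries 1 and 3 and -1.31 without control libraries 1 and 3 of both fractions. Ovary and reproductive tract markers, from tissue next to gonadal fat, were positive for 4 of 5 with a median of 2.89. Of them, 2 had a positive value at unadjusted p under 0.05 (40%). The median was 0.30 without control preadipocyte library 2, whose mean log2 level of these markers was 4.09 against 1.18 to 1.89 in the other preadipocyte libraries. Star, a steroid synthesis gene, was at 0.936, 14 and 6.88 CPM in control and 5.35, 42.6 and 126 CPM in stress adipocytes. Mesothelial markers were positive for 7 of 11 with a median of 0.64, and -0.08 without stress preadipocyte libraries 3 and 4.

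**Figure D5:**
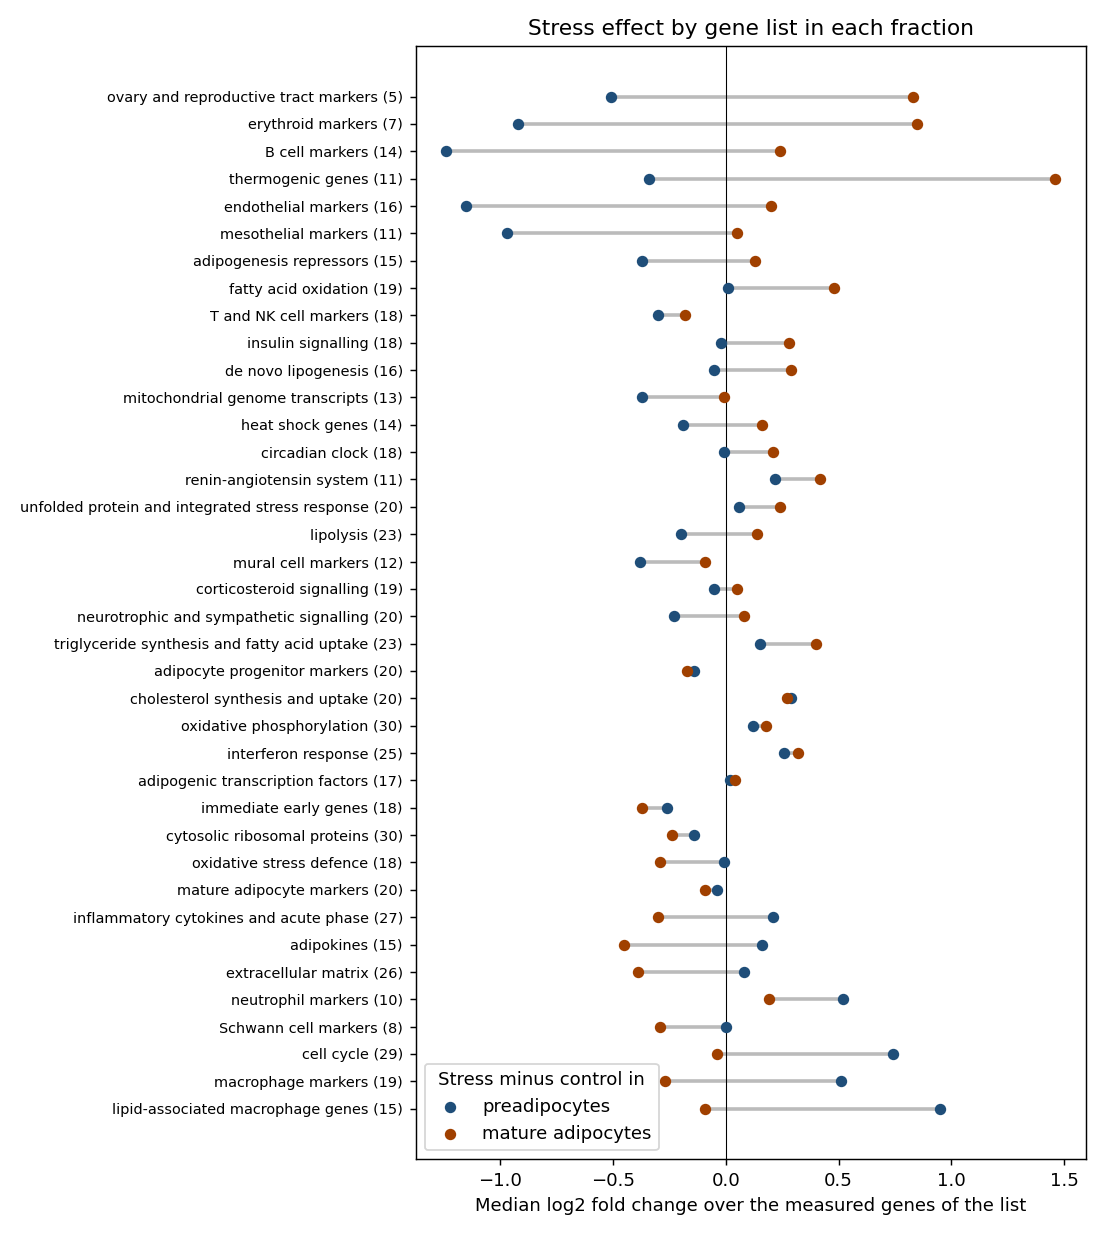
Median stress minus control log2 fold change of each gene list but the epithelial one, whose medians are far lower, in preadipocytes and in mature adipocytes (x axis), with the number of genes tested in brackets and the lists ordered by their median interaction. Thermogenic genes lie at -0.34 and 1.46, and lipid-associated macrophage genes at 0.95 and -0.09.

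The other lists are given by their medians. The median interaction was 0.35 for T and NK cell, -0.46 for neutrophil, 0.15 for mural cell and -0.51 for Schwann cell markers. It was -0.32 for mature adipocyte and 0.05 for progenitor markers, 0.04 for cholesterol synthesis, 0.02 for interferon response, 0.25 for heat shock, 0.20 for the unfolded protein response, -0.06 for immediate early genes and -0.11 for cytosolic ribosomal proteins. The mitochondrial genome transcripts were positive for 12 of 13 with a median of 0.32, and mt-Nd4l was the single one at unadjusted p under 0.05 (1.66 ± 0.71, and 0.89 without control preadipocyte libraries 1 and 3). Without control adipocyte libraries 1 and 3 the median turned to 0.70 for mature adipocyte, 0.51 for Schwann cell and 0.08 for neutrophil markers, to -0.19 for cholesterol synthesis, to -0.09 for interferon response and to 0.34 for ribosomal proteins. Without the same libraries it was 0.98 for mural cell markers and 0.75 for heat shock genes. T and NK cell markers turned to -0.18 and progenitor markers to -0.16 without stress adipocyte library 3. The medians of heat shock genes and of the unfolded protein response kept their sign in all alternatives run.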

How the data were processed

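Bulk RNA was sequenced from 16 libraries, of which the 14 on the high-fat diet were used. For 54532 Ensembl genes the authors deposited read counts, not normalized, and FPKM values. STAR 2.6.1d, DESeq2 1.20.0, edgeR 3.24.3 and the builds mm10 and GRCm38 are named, per the submitters' processing notes. How reads were counted, whether by strand, and on which annotation is not given in the sources used here. Overlapping or near-identical genes may therefore share reads.

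The counts were fitted with edgeR 4.0.16 (R 4.3.3; TMM, filterByExpr, robust quasi-likelihood F test) in a model of 4 group means, with Benjamini-Hochberg adjustment at 0.05 over 17948 genes. Fitted values use a prior count of 0.125. Control preadipocyte libraries 1 and 3 were summed. Standard errors are the log2 value over the square root of F. DESeq2 1.42.0 and limma 3.58.1 (on log2(FPKM + 1), log2(FPKM + 0.1) and voom), other filters and size factors, a replicate block and leaving out libraries were the alternatives. Named genes were the 12 of smallest interaction p in each direction, with 4 group means averaging at least 5 CPM and no clone names; from the lists, 1 to 4 members of smallest p were named. The comparison, the rule and the gene lists were chosen with earlier results of these data known. List scores are means of log2 CPM.

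Replicate numbers are shared by the groups, but the labels do not say that a number is an animal, so no block entered the main fit. The 6 pairs of same-numbered libraries are too few to decide whether the numbers pair the libraries.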

Additional observations from a re-analysis of the deposited data

Results flagged for a closer look

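In 118 groups of 4 stress preadipocyte libraries, 1 per gene, list score or library measure examined, 3 had a library far from the others. Chance flags about 1 in 20 such groups. Kbtbd11 was at 16.4 CPM in stress preadipocyte library 1 and at 8.36 to 9.27 CPM in the other libraries of the group. The angiotensin receptor Agtr2 was at 2.49 CPM in library 2 and at 0.672 to 0.846 CPM in the others. Trp63, a transcription factor of stratified epithelium, was at 1 CPM in library 1 and at 0 to 0.0846 CPM in the others.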

How the results depend on the processing

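The interaction had 0 calls in 24 of 25 alternatives, with 873 genes at unadjusted p under 0.05 in the fit reported. That number, 4.86% of the genes tested, was 1223 (6.72%) with control preadipocyte libraries 1 and 3 kept as 2 libraries. When 1 library was left out it ranged from 589 (3.31%) to 2436 (13%). The highest was without control adipocyte library 2, and it was 1341 (7.16%) without stress adipocyte library 1. With no low-count filter it was 1602 (4.76%), with a filter of 1 CPM 705 (4.46%) and with DESeq2-type size factors 893 (4.98%). These shares are of the genes tested in each fit, whose number differed. With the replicate block the number was 520 (2.91%), with 0 calls and a smallest adjusted p of 1. That fit used the libraries with a same-numbered partner and kept control preadipocyte libraries 1 and 3 apart. Of 6 pairs of same-numbered libraries, 2 correlated above 0.1 (range -0.221 to 0.155) and 2 matched best within their own number. So few pairs, some of them with the near-identical libraries, cannot decide whether the numbers pair the libraries. DESeq2 called 4 genes for the interaction, 1 for preadipocytes and 39 for adipocytes, and limma on log2(FPKM + 1) called 3 for preadipocytes. With 1 library left out the adipocyte calls ranged from 0 to 28, and the preadipocyte and interaction calls stayed at 0. Alternatives chosen after seeing the data left out control libraries 1 and 3 of both fractions or stress preadipocyte libraries 3 and 4. The latter gave 0 calls and 676 genes at unadjusted p under 0.05 (3.63%). The 24 named genes kept their sign in every alternative run. They were picked by small p in the same libraries that the alternatives reuse, so this is no separate support for them. Over all alternatives, 19 of 2235 values of 90 single genes changed sign, and Myh4 in DESeq2 passed its threshold. Of 975 list medians, 127 changed sign, and 15 of 39 lists kept theirs throughout. The causes were not tested. With limma on log2(FPKM + 1), Elf3 was 0.10 and Adipoq 0.30, and on log2(FPKM + 0.1) Adipoq was 0.59. With quality weights Sfrp5 was 0.09, Lep 0.28, Adipoq 1.48 and Pdgfra 0.06. With 1 library left out Dpp4 ranged from -0.04 to 0.51 and Pdgfra from -0.66 to 0.38. Dpp4 was -0.29 without stress preadipocyte libraries 3 and 4, which also gave Ube2c 0.04 and Cdk1 0.35. Without control adipocyte libraries 1 and 3, Rarres2 was 0.08, Adipoq 0.69 and Plin1 0.42. Without control libraries 1 and 3 of both fractions they were 0.20, 0.68 and 0.63.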

Other observations

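In the 2 low-fat preadipocyte libraries, 1 control and 1 stress, the named genes can be set beside the high-fat preadipocytes, with no replicate and no test. Dusp6 was at 31.9 CPM in the control and 37.9 CPM in the stress library, Trib2 at 6.58 and 8.62 CPM, Ptpn4 at 17.4 and 16.3 CPM and Entpd5 at 45 and 50.5 CPM. On the high-fat diet the stress libraries of all 4 genes lay below control in this fraction. Zc3h12a was at 72.3 CPM in the control and 47 CPM in the stress low-fat library, and Lbp at 112 and 120 CPM. Col6a4 was at 42.7 and 50.1 CPM, near the higher control libraries of the high-fat diet. Sphk1 was at 62.4 and 34.7 CPM and Chka at 58.4 and 38 CPM, while both genes had high-fat preadipocyte groups that overlapped.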
